A study of Mus musculus with 4 samples.

Results

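The genes described here are Myc, its partner Max, Mxd4 (which competes with Myc for Max) and genes that make ribosomes. The genes were followed in Th2 cells from cultures with and without SH-2251. They were chosen by name as a list of 40 genes, with earlier results of these data known. The shares of all genes given beside them are therefore a description only. The 40 genes were looked up on the arrays through the RefSeq accession of each probe. Of the 40 genes, 39 had a named probe among 18539 genes named on the arrays, and Nop56 had none. All 39 were well above background on all 4 arrays, so none was lost to the filter on dim probes and none rests on a bound. Each gene was represented by its brightest probe, and a level is the log2 signal minus the 75th percentile of that array.

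SH-2251 is a small molecule related to thioamides. It was developed to block IL-5, and the study asked which genes it alters in Th2 cells, the CD4 T cells that secrete IL-5 together with IL-4 and IL-13. Splenic CD4 T cells of female C57BL/6J mice were activated for 2 days with anti-TCR-β antibody (3 µg/ml) and anti-CD28 antibody (1 µg/ml), then kept for 3 more days, with IL-2 at 2.5 ng/ml throughout and IL-4 at 10 ng/ml in both phases. The 4 conditions were resting control cells, resting SH-2251 cells, and the same cells restimulated for 4 h on immobilized anti-TCR-β antibody, with 1 array for each. The labels give SH-2251 at 1 µM in the first phase and 1 mM in the second, whereas the methods of the study give a lower dose, start from naïve CD4 T cells and add an antibody to IFN-γ, and which of these applies to the arrays was not settled.

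All 4 arrays lay on 1 slide, and the share of probes well above background ran from 56.2% to 56.8%. The scanner software's metric for the negative control spots was in range on the restimulated SH-2251 array only. What this means for the differences was not tested. A single array per condition allows no replicate check, and no test was run and no p-value is given, and it is the small number of arrays that limits how precise the values are. The error given is a technical SD from the error estimate of the scanner software, which is set at no less than 10% of the signal, so that it was close to 0.20 for the difference of most genes. Repeat spots of a probe agreed more closely, their median SD being 0.046 to 0.055 (log2) depending on the array. Neither covers the spread between cultures. In bulk RNA, fewer cells expressing a gene and less of its RNA in each cell cannot be told apart. The restimulation was visible in all 7 genes listed to check it, Il2, Egr1, Egr2, Nr4a1, Nfkbid, Tnf and Ifng, which were each at least 2-fold higher after restimulation with and without SH-2251. Their restimulated levels were not equal, since 3 of 7 were higher and 4 lower with SH-2251. Of these, 2 were at least 2-fold lower, the lowest at -1.64. Among the 6 measured on all 4 arrays, 1 response differed between the cultures by at least 2-fold (-1.18), compared with 1.22% of all genes. The T cell and Th2 markers listed were Cd3e, Cd3g, Cd4, Trac, Gata3, Il4, Il5, Il13 and Ccr4. Of these, 8 of 9 had a named probe and all 8 were well above background on every array. With SH-2251 all 8 were lower at rest, with a median of -0.19, and 5 of 8 were lower after restimulation, with a median of -0.12. The medians hide large single differences. At rest 2 of the 8 were at least 2-fold lower, the lowest at -3.86, compared with 2.9% of all genes. After restimulation 1 was, at -3.01, compared with 2.78%. Their summed signal, in units of each array's 75th percentile, was 105.8 in resting control cells and 96.2 in resting SH-2251 cells. In restimulated cells it was 478 without and 366 with SH-2251. The list includes the cytokine genes Il4, Il5 and Il13, so this sum is no measure of T cell content. With restimulation 3 of the 8 markers were at least 2-fold higher in each culture, compared with 7.2% and 7.09% of all genes. The highest differences were 5.16 in control and 6.01 in SH-2251 cells, where the medians were 0.24 and 0.37.

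Myc is a transcription factor that binds DNA together with Max, and Mxd proteins such as Mxd4 compete with Myc for Max and repress. Genes for ribosome production are among the best known targets of Myc, and resting T cells that are triggered through their antigen receptor enlarge their nucleoli and make more ribosomes before they divide. In the nucleolus, RNA polymerase I transcribes the long precursor of ribosomal RNA, small nucleolar ribonucleoproteins (snoRNPs) guide its chemical modification, and the small and large subunits are then assembled by separate sets of factors.

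Restimulation went with higher levels of nearly the whole set. In the control cells, 37 of the 39 genes were higher after 4 h than at rest (36 with scaling to the added control RNA), compared with 45.2% of all genes, and 22 of them (56.4%) were at least 2-fold higher. Over all 12758 genes compared, 7.2% were at least 2-fold higher and 7.34% at least 2-fold lower. None of the 39 genes was at least 2-fold lower. The median difference of the set was 1.09 on the log2 scale, against a median of -0.06 over all genes. In the cells cultured with SH-2251, 37 of 39 were again higher and 19 (48.7%) were at least 2-fold higher, against 7.09% of all 12613 genes higher and 6.98% lower by that much, with a median of 0.94 for the set. The 2 genes that were lower were Max and Mxd4 in both cultures, although Max in the SH-2251 cells turned to the higher side with the normexp background correction. All 36 genes outside the Myc network were higher in both, and 36 of the 39 in control cells exceeded their technical SD on the higher side, compared with 29.4% of all genes.

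**Figure D1:**
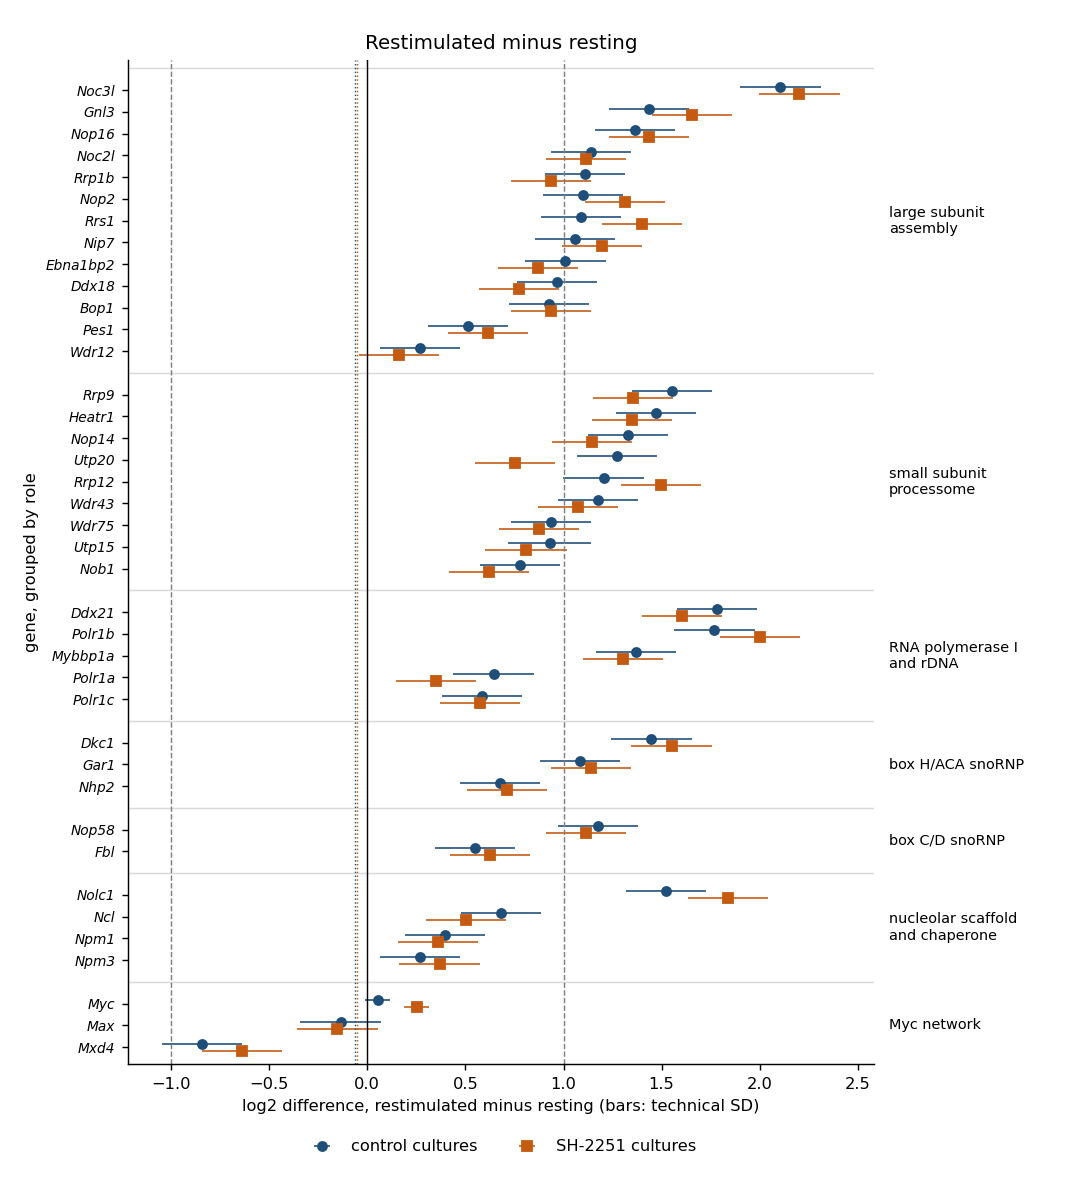
Difference of each gene between restimulated and resting cells on the log2 scale (x axis), for control cultures (circles) and SH-2251 cultures (squares), with 1 array per condition and bars for the technical SD. Genes are grouped by role on the y axis, dashed lines mark 2-fold, dotted lines the median of all genes. Noc3l lies farthest to the right in both cultures, at 2.11 and 2.20, and Mxd4 farthest to the left, at -0.84 and -0.64.

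SH-2251 went with slightly lower levels of most of the set, in both states, with no gene at 2-fold. In the resting cells, 36 of 39 genes were lower with SH-2251 than without it and 24 (61.5%) were lower by more than their technical SD, compared with 27.2% of all genes, whereas scaling the arrays to the added control RNA left 30 of 39 lower. The median of the set was -0.27, against -0.06 over all 12684 genes, of which 57.5% were lower. None of the 39 was at least 2-fold higher or lower, a size reached upward by 2.22% and downward by 2.9% of all genes. In the restimulated cells, 37 of 39 were lower, compared with 57.8% of all genes, and 30 (76.9%) by more than their technical SD, compared with 27.6%. With scaling to the added control RNA 31 of 39 were lower. The median was -0.29 against -0.06 over 12623 genes, and again no gene of the set reached 2-fold, compared with 2.65% of all genes upward and 2.78% downward. In both comparisons, 35 of 39 genes (89.7%) were lower, compared with 46.3% of 11518 genes measured on all 4 arrays. The 2 comparisons share no array, but both may carry the same difference between the control and SH-2251 cultures. They are therefore not replicates of each other.

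**Figure D2:**
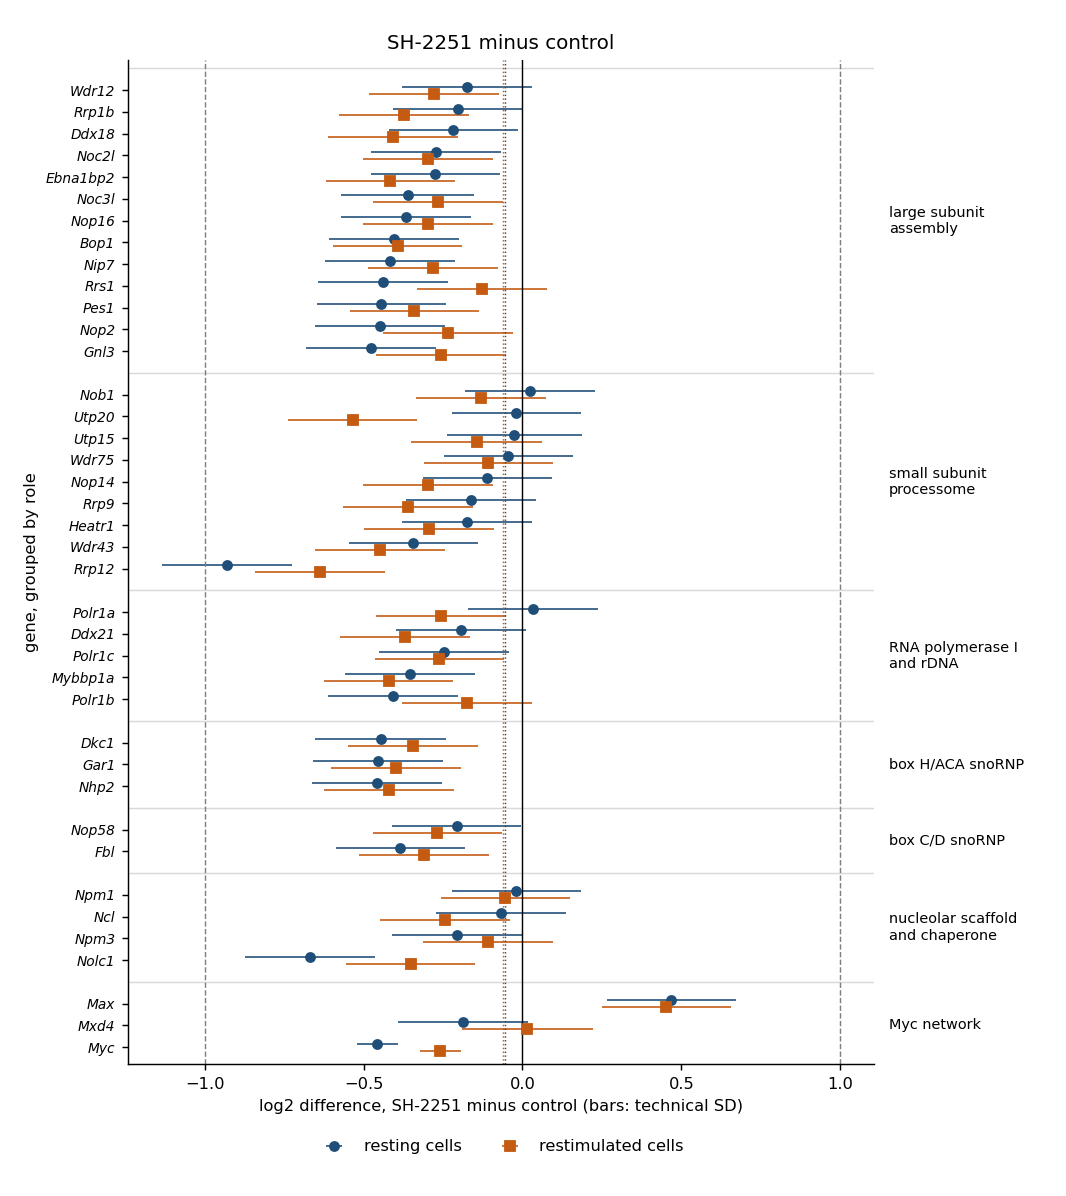
Difference of each gene between SH-2251 and control cultures on the log2 scale (x axis), in resting (circles) and restimulated cells (squares), with 1 array per condition and bars for the technical SD. Dashed lines mark 2-fold and dotted lines the median of all genes. Rrp12 lies farthest to the left in both states, at -0.93 and -0.64, and Max farthest to the right, at 0.47 and 0.45. Scaling to the added control RNA turns some genes near 0 to the higher side and leaves 30 and 31 of 39 lower.

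Other cell types in the cultures were followed by their markers. Of 9 B cell markers, 8 were well above background on every array and Pax5 on none. Their summed signal was 41.3 in resting control cells, 36.1 in resting SH-2251 cells, 33.2 in restimulated control cells and 46.1 in restimulated SH-2251 cells. With SH-2251, 5 of the 8 were higher at rest (median 0.17), where the sum was lower, and 6 of 8 were higher after restimulation (median 0.58). Among NK and CD8 T cell markers, 3 of 6 were well above background with summed signals of 0.708 to 1.03, and Ncr1, Klrb1c and Klrk1 were not. Among myeloid markers 3 of 8 were above background, with sums of 2.46 to 3.01, and Itgam, Lyz2, Itgax, S100a8 and S100a9 were not. Of the red cell genes, the haemoglobin gene Hba-a1 was above background on all arrays, with levels of -1.70 in resting control cells, -0.55 in resting SH-2251 cells, -2.26 in restimulated control cells and -0.98 in restimulated SH-2251 cells. Both SH-2251 arrays were above their controls, by 1.15 at rest and 1.28 after restimulation. The part of these cells in the differences was not tested.

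Because Myc and Max bind the hexamer CACGTG (the E-box, a palindrome that reads the same on both strands) and also the variant CACGCG, both were searched in the promoters of the set. The sequences are those of RefSeq on build GRCm38.p6, from 250 bases before the start of transcription to 50 bases from it on. A window was on hand for 34 of the 40 genes, and for Myc, Npm1, Fbl, Rrp12, Bop1 and Rrs1 there was none. CACGTG lay in the windows of 7 of the 34 genes (20.6%): Max, Mxd4, Nop2, Pes1, Wdr43, Utp20 and Mybbp1a. It lay in those of 8.09% of all 27025 genes with a window and of 11.3% of the 10550 that were above background on at least 1 array. Without Max and Mxd4, which belong to the Myc network itself, CACGTG lay in 5 of 32 genes (15.6%). CACGCG, searched on both strands (CGCGTG on the other), lay in 10 of 34 (29.4%), namely Nolc1, Nip7, Polr1c, Mybbp1a, Pes1, Nhp2, Utp15, Noc2l, Nop16 and Ddx21, compared with 10.5% of all genes with a window and 18.7% of those above background. Either motif was present in 15 of 34, or 44.1%, against 17.2% and 27.5%. Without Max and Mxd4 either motif was present in 13 of 32 (40.6%). A match describes these letters only and is neither a binding site nor a cause.

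The stretches around matches are shown for Max and Mxd4 and for genes of the set that stand in the results below. They are written 5′ to 3′ on the strand of the gene, with the match in capitals.
Max: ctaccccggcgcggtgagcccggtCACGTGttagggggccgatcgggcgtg
Mxd4: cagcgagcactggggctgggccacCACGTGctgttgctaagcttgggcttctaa
Nop2: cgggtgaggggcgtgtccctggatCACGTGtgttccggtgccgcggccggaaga
Pes1: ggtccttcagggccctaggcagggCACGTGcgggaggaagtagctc
Wdr43: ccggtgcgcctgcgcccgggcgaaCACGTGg
Nolc1: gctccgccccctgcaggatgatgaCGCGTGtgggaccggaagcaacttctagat
Polr1c: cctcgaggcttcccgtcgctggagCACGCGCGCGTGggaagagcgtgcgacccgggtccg
Nip7: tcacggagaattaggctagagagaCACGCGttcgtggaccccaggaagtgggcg

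The stretch of Max lies at chr12:76962225-76962275 on the minus strand, with the match 3 bases before the start. That of Mxd4 lies at chr5:34187900-34187953, minus strand, with the match 219 bases before the start. That of Nop2 is chr6:125131799-125131852, plus strand, with the match 60 bases before it. In Pes1 (chr11:3963953-3963998, plus strand) and Wdr43 (chr17:71616208-71616238, plus strand) the match lies within the transcribed part, 2 and 17 bases after the start base. Nolc1 (chr19:46075798-46075851, plus strand) holds its match 25 bases before the start, in the letters of the other strand. Polr1c (chr17:46248185-46248244, minus strand) holds a pair of matches, on either strand, from 175 bases before the start. Nip7 (chr8:107056812-107056865, plus strand) holds its match 41 bases before the start. The restimulation differences of genes with and without a motif overlapped. The 13 measured genes outside the Myc network with either motif had a median of 1.14 in control cells, with a range of 0.51 to 1.78, and the 18 with neither had a median of 1.10, with a range of 0.27 to 2.11. The difference of 2.11 in Noc3l, at the top of the set, came without either motif in its window.

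In the Myc network, Myc and Max moved little with restimulation and Mxd4 was lower. The level of Myc was 3.52 in resting control cells, 3.06 in resting SH-2251 cells, 3.57 in restimulated control cells and 3.31 in restimulated SH-2251 cells. Its probe was spotted 10 times on each array, and the SD between these spots was 0.03 to 0.04, so the level with SH-2251 was lower than without it by far more than the spread between spots in both states. In the resting cells the signal with SH-2251 was 72.8% of the control (log2 difference -0.46, technical SD 0.06), and in the restimulated cells 83.6% (-0.26, technical SD 0.06). These technical SDs average the errors of the 10 spots as if independent, so they are not comparable with those of other genes. Restimulation changed Myc by 0.05 in control cells, less than its technical SD and on the lower side with quantile normalization or with scaling to the added control RNA, and by 0.25 in SH-2251 cells. The other 2 probes of Myc, both above background on all arrays, gave restimulation differences of 0.19 and 0.19 without SH-2251 and of 0.30 and 0.26 with it.

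Max, the obligate partner of Myc, showed the opposite order with SH-2251. Its level was 3.60 in resting control cells, 4.06 in resting SH-2251 cells, 3.46 in restimulated control cells and 3.91 in restimulated SH-2251 cells. Both SH-2251 arrays were above both control arrays, by 0.47 at rest and 0.45 after restimulation, each with a technical SD of 0.20. Max was the single gene of the set that was higher with SH-2251 by more than its technical SD. With restimulation it was lower by 0.14 and 0.15, within its technical SD.

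Mxd4, a repressor that pairs with Max in quiescent cells, was the single gene of the set that was lower after restimulation by more than its technical SD. Its level was 0.00 in resting control cells and -0.19 in resting SH-2251 cells, and -0.84 and -0.83 in the restimulated cells without and with SH-2251. The restimulated signal was 55.8% of the resting one in control cells and 64.2% in SH-2251 cells. With SH-2251 it differed by -0.19 at rest and 0.01 after restimulation, within the technical SD of 0.20.

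The remaining 12 listed genes of the Myc network were measured as well. Mxd3, another repressor of the Mxd family, was at least 2-fold lower after restimulation in both cultures (-1.60 and -1.79). Zbtb17, which encodes the Myc-binding factor Miz-1, was 1.00 higher in control cells and 1.11 higher in SH-2251 cells. Mycn, a paralogue of Myc, had levels of -3.32, -4.78, -0.81 and -2.30 in the order given above, and was below background in the resting SH-2251 cells. After restimulation it was 2.51 higher in control cells and at least 2.35 higher in SH-2251 cells, and with SH-2251 it was 1.49 lower in restimulated cells and at least 1.33 lower in resting cells. Mxd1 was 0.66 higher with SH-2251 in restimulated cells and Fbxw7, which targets Myc protein for degradation, 0.52 higher, while Mxi1 was 0.55 lower. The network as listed did not move in 1 direction, with medians of 0.00, -0.02, 0.26 and 0.18 over its 12 other genes in the 4 comparisons.

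**Figure D3:**
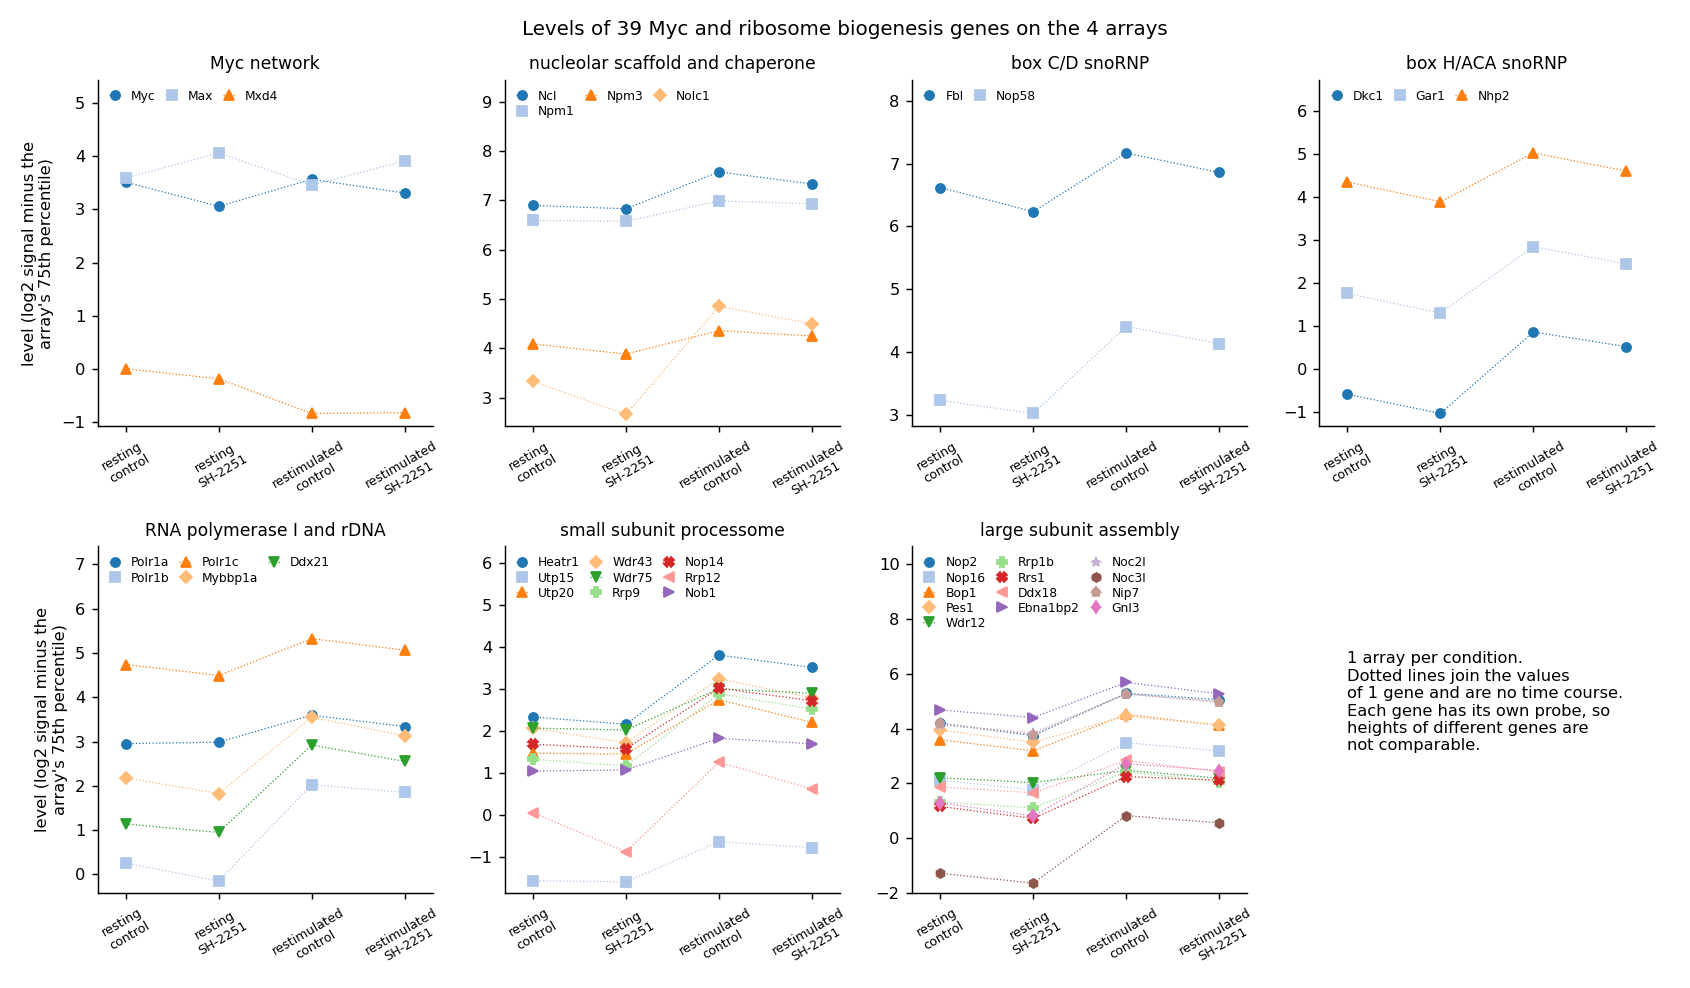
Level of each gene on the 4 arrays, by role. The y axis is the log2 signal minus the 75th percentile of the array, and each point is 1 array. Dotted lines join the values of a gene and stand for no time course. In 33 of 39 genes the points rank, from low to high, resting SH-2251, resting control, restimulated SH-2251, restimulated control.

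Among nucleolar scaffold and chaperone genes, Nolc1 stood apart. Nolc1 (Nopp140), which binds snoRNPs and chaperones them to the nucleolus, had levels of 3.33 in resting control cells, 2.66 in resting SH-2251 cells, 4.85 in restimulated control cells and 4.50 in restimulated SH-2251 cells. Both restimulated arrays were above both resting arrays, by 1.52 (2.87-fold) in control cells and 1.84 (3.57-fold) in SH-2251 cells. At rest it was lower with SH-2251 by 0.67, the second largest difference of the set, and in restimulated cells by 0.35. A second, dimmer probe of Nolc1 gave a smaller restimulation difference, 0.89 and 0.87.

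Genes for the abundant nucleolar proteins changed less. Ncl (nucleolin), an RNA-binding protein of the dense nucleolus, had levels of 6.90, 6.83, 7.58 and 7.33 in resting control, resting SH-2251, restimulated control and restimulated SH-2251 cells. Npm1 (nucleophosmin), a chaperone of histones and ribosomal proteins, had 6.59, 6.57, 6.99 and 6.93 in the same order. The restimulated levels were above the resting ones in both genes, by 0.68 and 0.50 for Ncl and by 0.40 and 0.36 for Npm1. Npm3, a relative of Npm1, was 0.27 and 0.37 higher. The differences with SH-2251 in Npm1, -0.02 and -0.05, lay within the technical SD, and their sign changed with the scaling.

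The snoRNP genes were higher after restimulation in all 5 measured cases. Fbl, the methyltransferase fibrillarin of the box C/D particles, was 0.55 higher in control cells and 0.62 in SH-2251 cells. Nop58, a scaffold of the same particles, was 1.17 and 1.11 higher. Dkc1 (dyskerin), the pseudouridine synthase of the box H/ACA particles, had levels of -0.58 in resting control cells, -1.03 in resting SH-2251 cells, 0.87 in restimulated control cells and 0.52 in restimulated SH-2251 cells. Its restimulated signal was 2.73-fold and 2.93-fold above the resting one. Its partners Gar1 and Nhp2 were higher by 1.09 and 0.67 in control cells and by 1.14 and 0.71 in SH-2251 cells.

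With SH-2251 the 3 box H/ACA genes were lower in both states. At rest the differences were -0.45 for Dkc1, -0.45 for Gar1 and -0.46 for Nhp2, each over 2 times its technical SD, whereas the normexp background correction gave -0.08, -0.57 and -0.75. In restimulated cells they were -0.34, -0.40 and -0.42. Fbl and Nop58 were lower by 0.38 and 0.21 at rest, and by 0.31 and 0.27 after restimulation.

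The genes of RNA polymerase I and of ribosomal DNA were split by size of the response. Polr1b, which with Polr1a forms the catalytic core of the polymerase, had levels of 0.26 in resting control cells, -0.15 in resting SH-2251 cells, 2.03 in restimulated control cells and 1.85 in restimulated SH-2251 cells. This was 3.41-fold higher after restimulation without SH-2251 and 4.01-fold higher with it. Polr1a, at 2.95, 2.99, 3.60 and 3.34 in the same order, was only 1.56-fold and 1.28-fold higher. Polr1c, a subunit shared with RNA polymerase III, was higher by 0.59 and 0.57 on the log2 scale.

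Ddx21, an RNA helicase that acts at ribosomal DNA and on the small subunit precursor, was 1.78 higher in control cells (levels 1.14 and 2.92) and 1.60 higher in SH-2251 cells (levels 0.95 and 2.55). Mybbp1a, a nucleolar regulator of polymerase I transcription, was 1.37 and 1.30 higher. With SH-2251, Polr1b differed by -0.41 at rest and -0.17 after restimulation, and Mybbp1a by -0.35 and -0.42. Polr1a differed by 0.03 at rest and -0.26 after restimulation, and the sign of the former depended on the background correction.

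The 13 other genes of RNA polymerase I and its initiation factors moved less than the members did. Their medians were 0.40 and 0.29 with restimulation, with 9 and 12 of 13 higher, and 0 and 2 at least 2-fold higher, the latter by a margin that median centring removed. Over all genes, 45.2% and 46.4% were higher, and 7.2% and 7.09% at least 2-fold higher. Tcof1, the treacle protein that recruits the polymerase, was 0.98 and 1.02 higher and Polr1d 0.71 and 1.02. With SH-2251 the medians were -0.26 at rest and -0.11 after restimulation, the latter turning to 0.03 with scaling to the added control RNA. Polr1f, a subunit of the polymerase stalk, was among the 4 of 13 genes that were higher at rest and the 3 of 13 that were higher after restimulation, and was higher with SH-2251 by 0.47 at rest and 0.82 after restimulation. The lowest values were those of the subunit Polr1g, at -0.52 in resting cells, and of Ubtf, the factor that keeps ribosomal genes open, at -0.47 in restimulated cells.

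The 9 genes grouped under the small subunit processome include Nob1 and Rrp12, which act in later steps of small subunit production. All 9 were higher after restimulation in both cultures, between 0.78 and 1.55 in control cells and between 0.62 and 1.5 in SH-2251 cells. Rrp9, which binds the U3 snoRNA, was 1.55 and 1.36 higher. Heatr1, which is needed for transcription and processing of the precursor, was 1.47 and 1.35 higher, and Nop14 1.33 and 1.14. Wdr43 was 1.18 and 1.07 higher, Wdr75 0.94 and 0.87, and Utp15 0.93 and 0.81. Nob1, the endonuclease that makes the end of 18S ribosomal RNA late in the cytoplasm, had the smallest difference of the group, 0.78 and 0.62.

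Rrp12, which takes part in export of the subunits from the nucleus, had the lowest level relative to control with SH-2251. Its level was 0.06 in resting control cells, -0.87 in resting SH-2251 cells, 1.26 in restimulated control cells and 0.63 in restimulated SH-2251 cells. The SH-2251 signal was 52.5% of the control at rest and 64.3% after restimulation (log2 differences -0.93 and -0.64, each with a technical SD of 0.20). Rrp12 was 1.2 higher after restimulation in control cells and 1.5 higher in SH-2251 cells.

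Utp20, a large scaffold of the processome, differed with SH-2251 in the restimulated cells. Its level was 1.47 in resting control cells, 1.46 in resting SH-2251 cells, 2.74 in restimulated control cells and 2.21 in restimulated SH-2251 cells. The resting arrays were equal within the technical SD (-0.02) and the restimulated ones differed by -0.53. The restimulation difference was 1.27 without SH-2251 and 0.75 with it. The other processome genes besides Rrp12, Utp20 and Wdr43 (-0.34 and -0.45) had differences with SH-2251 of -0.17 to 0.02 at rest and -0.36 to -0.11 after restimulation.

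The 13 genes of large subunit assembly were all higher after restimulation in both cultures. At least 2-fold higher were 9 in control cells and 7 in SH-2251 cells, compared with 7.2% and 7.09% of all genes. Noc3l, which accompanies the early large subunit in the nucleus, had levels of -1.28 in resting control cells, -1.64 in resting SH-2251 cells, 0.83 in restimulated control cells and 0.56 in restimulated SH-2251 cells. These correspond to a 4.3-fold and a 4.6-fold higher signal after restimulation. Its partner Noc2l was 2.20-fold and 2.16-fold higher. Gnl3 (nucleostemin), a nucleolar GTPase, had levels of 1.29, 0.81, 2.73 and 2.47 in the order used above and was 2.71-fold and 3.15-fold higher.

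Nop16 was 1.36 and 1.43 higher, and Nop2, a methyltransferase of 28S ribosomal RNA, 1.10 and 1.31. Rrs1, which helps to bring in the 5S particle, was 1.09 and 1.40 higher, and Nip7 1.06 and 1.2. Rrp1b was 1.11 and 0.94 higher, Ebna1bp2 1.01 and 0.87, and the helicase Ddx18 0.97 and 0.77. Of these, Rrp1b and Ebna1bp2 passed 2-fold in control cells only, by margins smaller than the technical SD, so that these crossings carry no difference between the cultures.

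Pes1, Bop1 and Wdr12 form the PeBoW complex, which is required for maturation of 28S and 5.8S ribosomal RNA, and all 3 stayed below 2-fold at the percentile scaling. Bop1 was 0.93 higher in control cells and 0.94 in SH-2251 cells, the latter passing 2-fold with the normexp correction (1.29, or 1.04 without spots of uneven background). Pes1 was 0.51 and 0.62 higher, and Wdr12 0.27 and 0.16. Wdr12 had levels of 2.21, 2.03, 2.48 and 2.20 in resting control, resting SH-2251, restimulated control and restimulated SH-2251 cells, so its restimulated SH-2251 level did not exceed the resting control level. Together with Ddx18, these were the genes of this role below 2-fold in control cells.

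With SH-2251 all 13 genes of large subunit assembly were lower in both states, compared with 57.5% and 57.8% of all genes. The differences lay between -0.48 (Gnl3) and -0.17 (Wdr12) at rest and between -0.42 (Ebna1bp2) and -0.13 (Rrs1) after restimulation. The median was -0.37 at rest and -0.30 after restimulation. For the group of the small subunit processome, with Nob1 and Rrp12 included, it was -0.11 and -0.30. The difference between the 2 roles at rest was not tested. In all, 30 of 39 genes had the same sign at rest and 32 after restimulation under every alternative processing, and those that did not were Ncl, Nob1, Noc3l, Nop14, Npm1, Polr1a, Utp15, Utp20 and Wdr75 at rest and Mxd4, Nob1, Npm1, Npm3, Rrs1, Utp15 and Wdr75 after restimulation.

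Across the 4 arrays, the set followed a common order. The level was lowest in resting SH-2251 cells in 35 of 39 genes (89.7%), compared with 28.5% of 11518 genes measured on all 4 arrays. It was highest in restimulated control cells in 37 of 39 (94.9%), compared with 27.5%. The full order of resting SH-2251, resting control, restimulated SH-2251 and restimulated control held in 33 of 39 (84.6%), compared with 13.3%. The 6 exceptions were Myc, Max, Mxd4, Polr1a, Nob1 and Wdr12. Neighbours at either end of this order lay close, since the difference with SH-2251 did not exceed the technical SD in 14 of 39 genes at rest and in 8 after restimulation.

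The size of the restimulation response was compared between the cultures by subtracting the control difference from the SH-2251 difference. The response was larger with SH-2251 in 18 of 39 genes and smaller in 21 (53.8%, compared with 47.5% of 11518 genes), with a median of -0.02 on the log2 scale. It ranged from -0.52 (Utp20) to 0.32 (Nolc1), and no gene reached 2-fold, a size reached in either direction by 1.22% of all genes. Of the set, 6 genes (15.4%) exceeded the technical SD of this value (median 0.29), compared with 19.9% of all genes, and 1 exceeded 2 times it (2.56%, compared with 4.4%). That gene was Myc, at 0.20 with a technical SD of 0.09, from the probe with 10 spots, whereas its other 2 probes gave 0.10 and 0.08. Its technical SD is small because the errors of the 10 spots were averaged as if independent. The value of 0.20 lies below the median technical SD of 0.29. By role, 2 of 9 values exceeded the technical SD in the small subunit processome and none of 3 in the box H/ACA snoRNP. The responses of the 39 genes lay in a similar order in both cultures (Pearson's r 0.95, Spearman's rho 0.93), where all genes gave 0.92 and 0.90. These correlations do not measure the size of the responses. They are given as a description, since genes are not independent replicates.

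Further genes of ribosome production, also listed with earlier results of these data known, moved the same way, with smaller medians. Of 101 further ribosome biogenesis genes compared, 94 were higher after restimulation in control cells and 95 in SH-2251 cells, with medians of 0.63 and 0.62. At least 2-fold higher were 24 and 29, compared with 7.2% and 7.09% of all genes. Mdn1, the large ATPase that remodels the pre-60S particle, was 2.27 and 2.03 higher. Urb1 was 1.64 and 1.86 higher, Pdcd11 1.63 and 1.64, and Grwd1 1.44 and 1.66. With SH-2251 the medians were -0.21 and -0.20, with 92 and 89 of 101 lower, or 65 and 73 with scaling to the added control RNA. At the percentile scaling 57.5% and 57.8% of all genes were lower. Rrp8 (-0.95), Grwd1 (-0.67) and Nol12 (-0.59) were lowest at rest, and Krr1 (-0.82), Nol12 (-0.58) and Exosc5 (-0.56) after restimulation.

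The genes for the proteins of the ribosome itself did not show a response of this size. Of 73 ribosomal protein genes compared, none was 2-fold higher after restimulation in either culture, and the medians were 0.15 and 0.15. Their direction was not settled, since 64 and 71 of 73 were higher at the percentile scaling but 42 and 43 with scaling to the added control RNA. With quantile normalization 37 and 31 were higher, with medians of 0.02 and 0. That method gives probes of equal rank the same value on every array, so these counts do not bear on the direction. The largest differences were 0.34 (Rpl30) in control cells and 0.34 (Rpl31) in SH-2251 cells. With SH-2251 the medians were -0.13 and -0.13, with 70 of 73 lower in each state, compared with 57.5% and 57.8% of all genes. Scaling to the added control RNA left 31 and 30 lower. Quantile normalization left 33 and 34 lower, with medians of 0, which for the same reason does not bear on the direction. With the normexp correction all 73 were lower at rest, with a median of -0.43, and all 73 were higher after restimulation in SH-2251 cells, with a median of 0.44. Rpl27a (-0.45), Rpl14 (-0.40) and Rpsa (-0.35) were lowest at rest. Ribosomal protein genes have many near-identical copies in the genome, so signal from a copy cannot be separated in these probes.

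**Figure D4:**
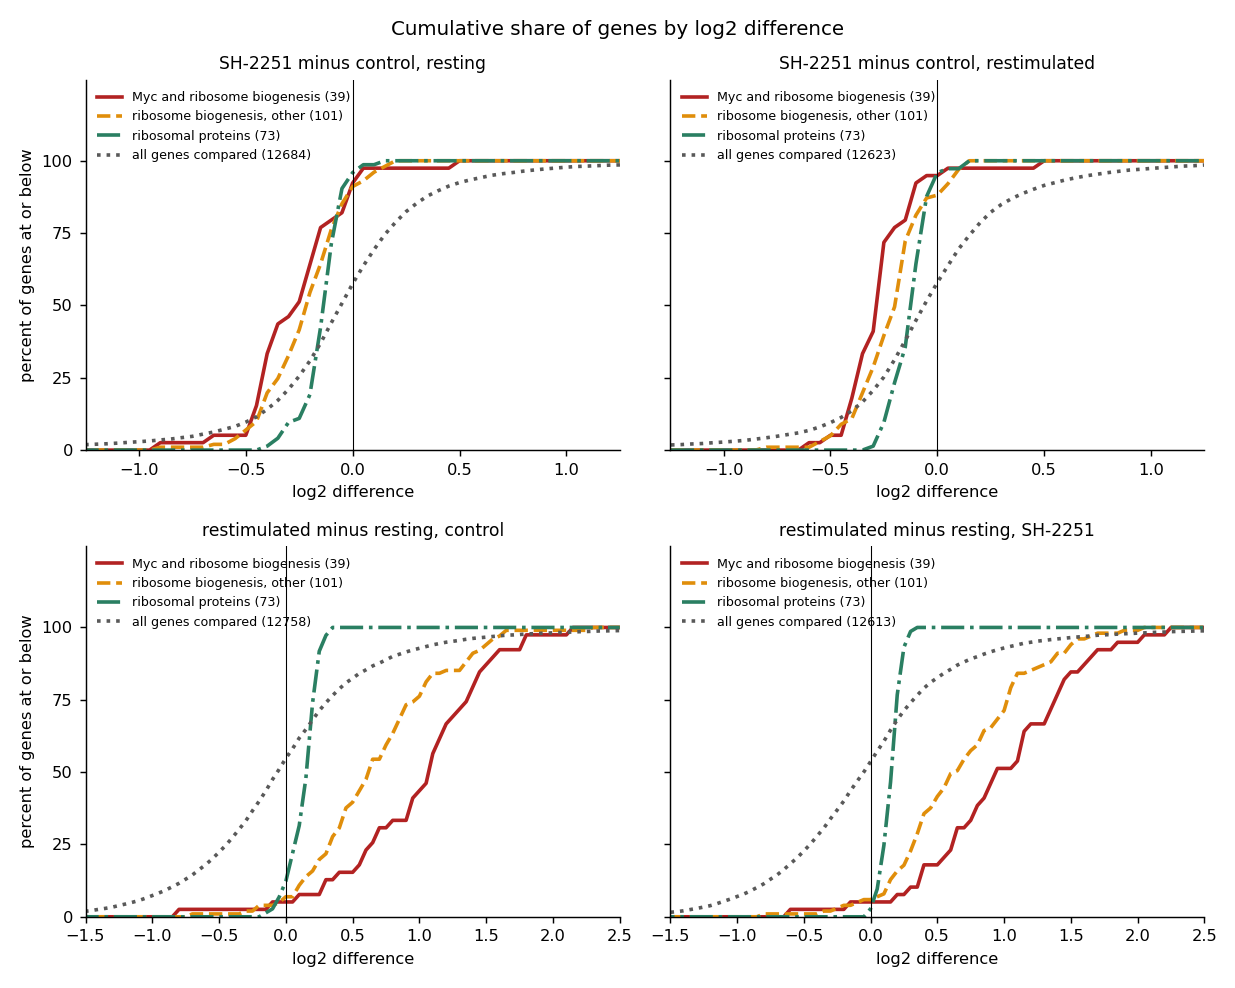
Cumulative percent of genes (y axis) at or below each log2 difference (x axis) in the 4 comparisons, for the 39 Myc and ribosome biogenesis genes, 101 other ribosome biogenesis genes, 73 ribosomal protein genes and all genes compared. With restimulation the curve of the set lies farthest to the right, with a median of 1.09 in control cells, and that of the ribosomal proteins rises steeply near 0.15. With SH-2251 all 3 lists lie slightly to the left of 0 at the percentile scaling shown, whereas scaling to the added control RNA moves the ribosomal proteins to medians of 0.01 and 0.02 and leaves the set at -0.13 and -0.15.

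Known Myc targets outside the ribosome were also higher after restimulation, in 23 of 27 genes in control cells and 22 in SH-2251 cells. The medians were 0.52 and 0.55. At least 2-fold higher were 7 and 4 genes, compared with 7.2% and 7.09% of all genes. Odc1, the first enzyme of polyamine synthesis, was 1.80 and 1.73 higher, and Srm, which makes spermidine, 1.7 and 1.65. The cyclin gene Ccnd2 was 1.42 and 1.7 higher. With SH-2251 the medians were -0.23 and -0.26, with 22 and 25 of 27 lower, or 18 and 20 with scaling to the added control RNA. At the percentile scaling 57.5% and 57.8% of all genes were lower. Nme1 (-0.57), Eif5a (-0.53) and Gart (-0.50) were lowest at rest, and Gart (-0.75), Nme1 (-0.58) and Srm (-0.51) after restimulation.

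The differences with SH-2251 are of the size that scaling can shift. The added control RNA, measured by 7 probes, lay 0.14 and 0.15 lower in the SH-2251 arrays relative to the 75th percentile, and 0.12 and 0.13 higher in the restimulated arrays. Scaling to it moved the median of all genes to 0.09 and 0.08 with SH-2251 and to -0.19 and -0.18 with restimulation. Scaling to it shifts the whole array by 1 value and so can hardly change where the set lies relative to the median of all genes, which was -0.22 and -0.23 with SH-2251 and 1.15 and 0.99 with restimulation. Under all the alternatives this value ran from -0.42 (normexp) to -0.18 (quantile normalization) at rest with SH-2251 and from -0.23 to -0.20 after restimulation. With restimulation it ran from 1.07 to 1.15 in control cells and from 0.97 to 1.23 in SH-2251 cells.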

How the data were processed

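RNA of 4 conditions was labelled with Cy3 (500 ng) and hybridised to Agilent whole mouse genome arrays, with 1 array per condition, grouped by the labels. The authors deposited the scanner intensities written by Feature Extraction (10.7.3.1 per the file headers), already corrected for background and spatial trend, with other columns that mark outlier, saturated and dim spots. The authors also deposited log2 values, which matched the scanner intensities, after log2 and subtraction of the 75th percentile, within 0.01 for 99.6% of probes or more and served as an alternative.

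From the intensities, outlier spots (77 to 106 per array) were left out, spots of a probe were averaged, and the 75th percentile (561, 614, 499 and 583 intensity units) was subtracted. No sample spot was saturated. RefSeq names on GRCm38.p6 were found for 27198 of 41174 probes, and the brightest probe stood for a gene. Genes dim on both arrays of a pair were left out, and those dim on 1 were given a bound. Differences were called at 2-fold, without a test.

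The members and all other lists were chosen with earlier results of these data known. Named are all members, the 3 largest differences of each other list per comparison, any gene of the Myc network and the genes of the checks. The other lists held 12 genes of the Myc network, 13 of RNA polymerase I, 103 of ribosome biogenesis, 27 Myc targets, 74 ribosomal proteins, 7 restimulation genes and markers of T, B, NK and CD8, myeloid and red cells. The procedure was tested on simulated data that held scanner error only and changes larger than 2-fold. That check does not bear on the smaller differences with SH-2251 or on the spread between cultures. Alternatives were median centring, quantile normalization, normexp background correction (offset 50, on median spot signals, as no mean signals were used here), no filter, a stricter filter, the mean of all probes, outliers kept, the log2 table and a 1.5-fold threshold. Removal of a lowess trend (fraction 0.3) and scaling to spike-in RNA were chosen after seeing the data. The tools were limma 3.58.1 in R 4.3.3, and Python 3.11.15 with pandas 2.3.3, numpy 2.4.6, statsmodels 0.14.6, scipy 1.17.1 and matplotlib 3.10.9.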

Additional observations from a re-analysis of the deposited data

How the results depend on the processing

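No gene of the set that was called at 2-fold changed sign under any of the alternatives, and normexp moved the most values, 48 of 156 differences, by more than the technical SD. The median of the set in resting cells with SH-2251 was -0.22 with median centring, -0.18 with quantile normalization, -0.43 with normexp, -0.19 without the lowess trend and -0.13 with spike-in scaling. In restimulated cells it was -0.25 with median centring, -0.23 with quantile normalization, -0.22 without the trend and -0.15 with spike-in scaling. With restimulation it was 0.99 (quantile) and 0.96 (spike-in) in control cells, and 1.13 (normexp), 1.04 (normexp without spots of uneven background), 1.04 (lowess) and 0.81 (spike-in) in SH-2251 cells. Spike-in scaling left 16 and 16 genes of the set 2-fold higher with restimulation. At 1.5-fold, 2 and 1 genes of the set were lower with SH-2251 at rest and after restimulation, 1 and 1 were lower with restimulation, and 30 were higher with restimulation in SH-2251 cells. Counts of all genes under these settings follow below. They are out of 12684 and 12623 genes with SH-2251 and 12758 and 12613 with restimulation. The few genes of the set that were lower at 1.5-fold are not read as a result about the set.

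Counts over all genes varied more. At rest with SH-2251, genes higher and lower numbered 694 and 162 with normexp, 122 and 189 with normexp without uneven spots, 623 and 798 without a filter, and 773 and 945 at 1.5-fold, compared with 282 and 368. In restimulated cells these were 149 and 161, 149 and 159, 677 and 950, and 871 and 902, compared with 334 and 351. With restimulation in control cells, genes lower numbered 443 with normexp, 442 without uneven spots and 2366 at 1.5-fold, where 1914 were higher, compared with 937 and 918. In SH-2251 cells, 1511, 443, 1421 without a filter and 2385 were lower, and 1871 higher at 1.5-fold, compared with 881 and 894. Spike-in scaling shifted the split to 398 higher and 279 lower, 457 and 268, 736 and 1255, and 716 and 1219 in the 4 comparisons. The cause was not tested. No paired analysis was possible because each condition has 1 array and no second replicate number to pair, and for the same reason no replicate could be left out. An additive fit of SH-2251 and restimulation, with 1 residual degree of freedom over the 4 arrays, was not run.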

Other observations

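Of the 39 genes, 17 had more than 1 named probe, and 21 of the 24 other probes were above background on all arrays. Their differences had the sign of the probe used in 20 and 21 of 21 cases with SH-2251 at rest and after restimulation, and in 20 and 21 with restimulation in control and SH-2251 cells. The largest gaps were in Ebna1bp2, whose second probe differed by -0.04 with restimulation in control cells where the probe used gave 1.01, and in Nolc1, with 0.87 against 1.84 in SH-2251 cells. Both of these second probes were dimmer on every array.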
